A study of Mus musculus with 18 samples.

Results

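The miR-221/miR-222 cluster is a pair of miRNA hairpins that lie side by side on the X chromosome. It was measured here as its 4 mature products, mmu-miR-221-3p, mmu-miR-221-5p, mmu-miR-222-3p and mmu-miR-222-5p, taken by name from the deposited table of 1907 mature miRNAs. Each had 1 row. The libraries came from NIH/3T3, a mouse embryonic fibroblast line, and hold small RNA either as input or after immunoprecipitation (IP) with a monoclonal antibody against pseudouridine (Ψ), an isomer of uridine. The cells were either wild type (WT) or carried a knockdown of Pus1, the gene of a Ψ synthase, for 3 days (KD3) or 6 days (KD6). The 6 groups (WT input, WT IP, KD3 input, KD3 IP, KD6 input and KD6 IP) had 3 replicates each, lettered A to C, for 18 libraries. The labels give the knockdown groups only as Pus1 knockdown with its day, and the control as wild type. They name no control knockdown and no day for the wild type. Loss of Pus1, the knockdown procedure and time in culture therefore cannot be told apart here. Nothing in the labels says whether replicates were separate cultures, so p-values measure only the spread between these libraries, which may be technical.

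miRNA hairpins are cut by Drosha and then Dicer into a short duplex, and one strand, from the 5′ arm (5p) or the 3′ arm (3p), is usually kept by an Argonaute protein as the guide while the other is degraded. The guide finds messenger RNAs mainly through its seed, bases 2 to 8. miR-221-3p and miR-222-3p are the guides of this cluster and are widely described as growth-promoting, in part because they repress Cdkn1b, which encodes an inhibitor of cyclin-dependent kinases. The 5p products are the passenger strands.

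The mature sequences are shown first because both guides carry one seed and yet behaved differently in the IP. RefSeq annotation of GRCm38.p6, the assembly that mm10 also names, held 3 of the 4. Capitals mark the seed.
mmu-miR-221-3p: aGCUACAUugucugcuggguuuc
mmu-miR-222-3p: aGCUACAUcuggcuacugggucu
mmu-miR-221-5p: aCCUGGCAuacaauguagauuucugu

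The guides shared their first 8 bases, including the seed GCUACAU, and differed at 12 of 23 positions when compared position by position without gaps. Such a count scores similar but shifted stretches as mismatches, so it can overstate how far the guides differ after base 8. An alignment with gaps was not made. One other mature miRNA in the reference, miR-1928, has this seed, and its total estimated count over the 18 libraries was 0. All 3 sequences start with A. miR-221-3p has 9 uridines in 23 nt, miR-222-3p has 7 in 23 nt and miR-221-5p has 9 in 26 nt, where the median over the 462 tested miRNAs with a sequence was 6. miR-221-3p is encoded at chrX:19146307-19146329, miR-221-5p at chrX:19146344-19146369 and miR-222-3p at chrX:19146901-19146923, all on the minus strand of GRCm38. Each lies in the exon of its own miRNA gene, and neither hairpin overlaps another gene in GENCODE M21. Only 504 bases separate the hairpins, and the nearest other gene, Gm14636, is 10010 bases away. The hairpins are printed to show the place of the arms, with the mature products above in capitals, 5′ to 3′ on the minus strand.
Mir221, chrX:19146294-19146388: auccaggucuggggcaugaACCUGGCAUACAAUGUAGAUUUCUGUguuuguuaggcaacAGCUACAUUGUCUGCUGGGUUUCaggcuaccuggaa
Mir222, chrX:19146893-19146971: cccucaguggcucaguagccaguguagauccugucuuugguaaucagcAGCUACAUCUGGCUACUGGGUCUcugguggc

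Mapped reads ranged from 3989031 to 15099781 in 17 libraries, and replicate A of the KD6 input had 241109. That library also stood apart in the cluster itself, as given below, and the KD6 results of the 4 products are also given without it. Pus1 mRNA is not part of a small RNA table, so the knockdown itself was not checked here. The fibroblast label was checked against 7 miRNAs known from fibroblasts and other mesenchymal cells (such as miR-21a-5p, miR-143-3p and miR-199a-3p), and all 7 had reads in 9 of 9 input libraries. Of 6 miRNAs typical of other tissues, miR-142a-3p was at 0 in every input and miR-122-5p, miR-124-3p, miR-1a-3p and miR-200b-3p stayed at or below 84.6 CPM (counts per 1000000 miRNA reads). The neural miRNA miR-9-5p was at 3013 to 3658 CPM, above miR-145a-5p (575 to 1628) and miR-214-3p (983 to 2429) of the fibroblast list. It and miR-122-5p also had reads in 9 of 9 inputs, so the presence of reads alone does not check the label.

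The levels of the 4 products differed widely within one cluster. By mean CPM they ran from 76.2 (miR-222-5p) to 3198 (miR-222-3p) in WT input, and from 34.6 to 5349 for the same products in WT IP. CPM values below are estimated counts per 1000000 of the library size after TMM scaling, with no length correction, and are given for replicates A, B and C in that order.

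mmu-miR-221-3p, a guide, was at 2913, 3041 and 3003 CPM in WT input and 1779, 2107 and 2793 in WT IP. It was at 2005, 2118 and 2156 CPM in KD3 input and 1765, 2381 and 3100 in KD3 IP. In KD6 input it was at 975.5, 3994 and 3633 CPM, and in KD6 IP at 3991, 3244 and 3751. By CPM the IP libraries were all below the inputs in WT and overlapped them in KD3 and KD6. As shares of miRNA reads they overlapped in WT too, at 0.180%, 0.200% and 0.261% in IP and 0.247%, 0.268% and 0.248% in input. By mean CPM the groups ran from KD6 IP (3662 ± 382 CPM; SD, n = 3) through WT input, KD6 input, KD3 IP and WT IP to KD3 input (2093 ± 78.3), and of the neighbours in that order only KD6 IP and WT input did not overlap. By mean share KD6 input came first and KD3 input last, and all neighbours overlapped.

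mmu-miR-222-3p, the guide with the same seed, was at 2985, 3499 and 3111 CPM in WT input and 5095, 5597 and 5353 in WT IP. It was at 1625, 1911 and 2175 CPM in KD3 input and 2315, 4110 and 4311 in KD3 IP. In KD6 it was at 967, 3327 and 3492 CPM in input and 7249, 5734 and 6666 in IP. Every IP library lay above every input of the same cells. The order ran from KD6 IP (6550 ± 764 CPM; SD, n = 3) and WT IP (5349 ± 251) through KD3 IP, WT input and KD6 input to KD3 input (1903 ± 275), and by CPM the 3 IP groups did not overlap each other, while KD3 IP overlapped WT input and the input groups overlapped in turn. By share of miRNA reads the order of the first 2 groups was reversed, with WT IP at 0.515%, 0.532% and 0.501% and KD6 IP at 0.490%, 0.418% and 0.558%, and they overlapped.

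mmu-miR-221-5p, a passenger strand, was at 678, 641 and 624 CPM in WT input and 926, 1059 and 1054 in WT IP. It was at 498, 458 and 552 CPM in KD3 input and 466, 771 and 688 in KD3 IP. In KD6 it was at 394, 621 and 550 CPM in input and 1323, 1011 and 1209 in IP. The IP libraries lay above the inputs in WT and KD6, and overlapped them in KD3. KD6 IP (1181 ± 158 CPM; SD, n = 3) and WT IP (1013 ± 75.5) were the highest groups by CPM and overlapped each other, WT IP lay clear of WT input, and the lower groups overlapped in turn down to KD3 input (503 ± 47.4). By mean share WT IP (0.0976%) came before KD6 IP (0.0881%), and these overlapped as well.

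mmu-miR-222-5p was the rarest, at 84.0, 77.9 and 66.7 CPM in WT input and 33.7, 34.6 and 35.6 in WT IP. It was at 56.6, 52.6 and 59.5 CPM in KD3 input and 26.8, 18.8 and 24.9 in KD3 IP. In KD6 it was at 48.8, 73.8 and 50.5 CPM in input and 19.7, 14.3 and 28.9 in IP. Every IP library lay below every input of the same cells, the opposite of miR-222-3p from the same hairpin. In the order of mean CPM the 3 input groups overlapped in turn, KD3 input lay clear of WT IP, WT IP lay clear of KD3 IP, and KD3 IP overlapped KD6 IP (20.99 ± 7.36 CPM; SD, n = 3). By share the order was the same, but KD6 input lay clear of KD3 input. Its estimated counts were low in places, with 12 in replicate A of the KD6 input and 32 to 153 in KD6 IP.

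**Figure D1:**
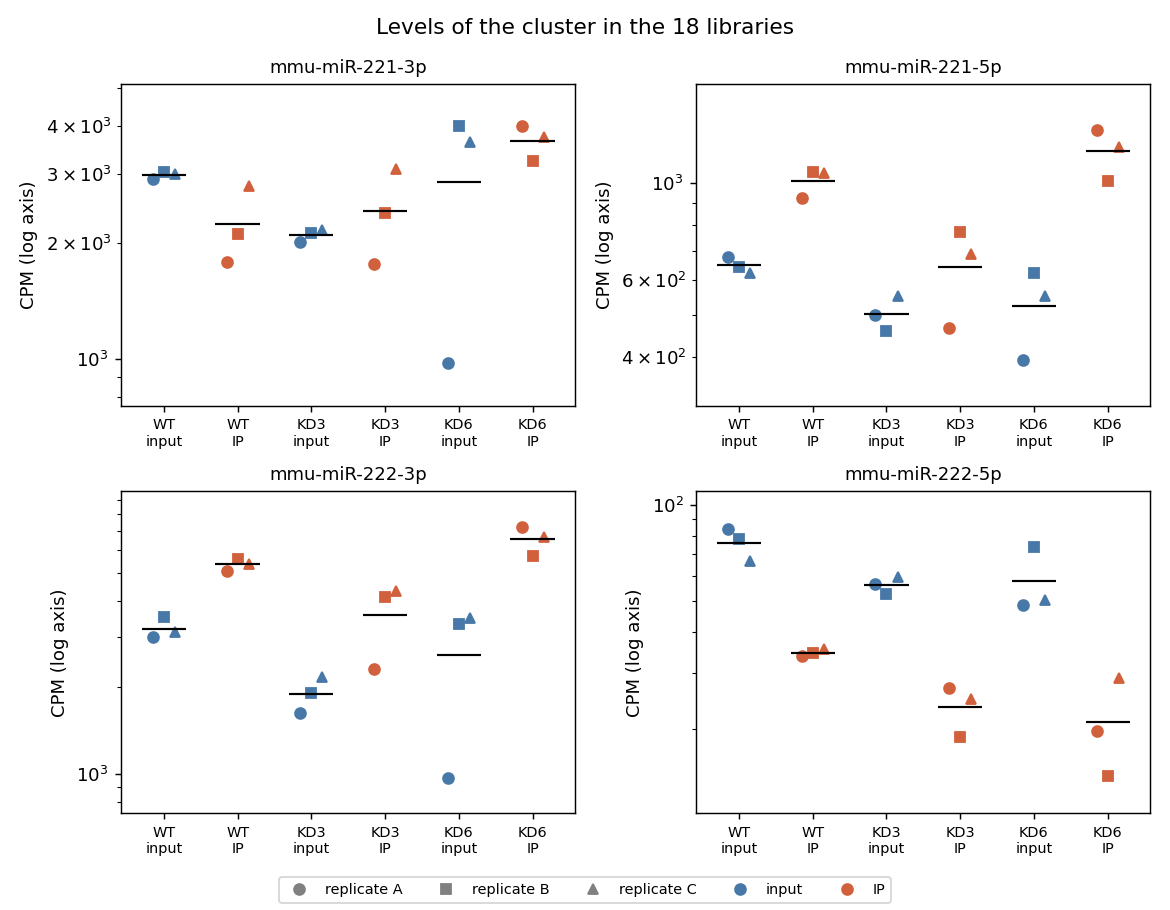
CPM on a log axis for each of the 4 products in the 6 groups; points are single libraries, with a marker for each replicate letter, and bars are group means. miR-222-3p lies higher and miR-222-5p lower in every IP group than in its inputs, and replicate A of the KD6 input lies apart for both guides.

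As a share of all miRNA reads, which uses no TMM factor, the 4 products together made up 0.589% ± 0.045 of reads in WT input, 0.396% ± 0.033 in KD3 input and 0.641% ± 0.334 in KD6 input (SD, n = 3). In the IP they made up 0.831% ± 0.037 in WT, 0.616% ± 0.176 in KD3 and 0.852% ± 0.123 in KD6. A share also depends on the other miRNAs of the library. miR-21a-5p alone was at 295361 to 481140 CPM in inputs, with a log2 IP/input ratio of -2.445 in WT. Its part in the higher shares of the IP was not tested. The wide spread of the KD6 input came from replicate A, where miR-221-3p took 0.107% of miRNA reads and miR-222-3p 0.106%. In replicates B and C miR-221-3p took 0.385% and 0.418%, and miR-222-3p 0.321% and 0.401%. Both guides ranked among the 50 most abundant of the 534 tested miRNAs in every group; miR-222-3p stood at place 35 in WT input and 22 in WT IP, and miR-221-3p at 40 and 34. The passenger strands stood at 82 and 56 (miR-221-5p) and at 169 and 188 (miR-222-5p).

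The deposited table also counts how many different read sequences were assigned to each miRNA. In WT input miR-221-3p had 66.2 ± 7.74 reads per distinct sequence, miR-222-3p 54.3 ± 8.10, miR-221-5p 33.8 ± 4.23 and miR-222-5p 9.99 ± 1.01 (SD, n = 3). In WT IP the values were 46.0 ± 13.2, 60.7 ± 10.4, 42.6 ± 5.21 and 5.56 ± 0.361 in the same order. These values can rise with the number of reads, and they were not tested. Across input and IP they did not always follow it. miR-221-5p had an estimated count of 3516 at 38.2 reads per sequence in replicate A of the WT IP. In replicate A of the WT input it had 5420.5 at 31.5.

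Ψ-IP against input asks which miRNAs are retained in the IP. None of the libraries came from a control IP, so binding by the antibody and background of the procedure cannot be told apart. In WT cells miR-222-3p and miR-221-5p were higher in the IP, miR-222-5p was lower, and miR-221-3p did not pass the test. edgeR's quasi-likelihood test with Benjamini-Hochberg adjustment over all 534 tested miRNAs gave log2 IP/input ratios in WT of 0.74 (SE 0.31, adjusted p = 0.0425) for mmu-miR-222-3p and 0.64 (SE 0.21, adjusted p = 0.00883) for mmu-miR-221-5p. For mmu-miR-222-5p the log2 ratio was -1.14 (SE 0.24, adjusted p = 0.000369), and for mmu-miR-221-3p it was -0.42 (SE 0.33, adjusted p = 0.258). Thus 3 of 4 products passed, where 66.7% of all tested miRNAs passed in this comparison. By CPM all 4 products had non-overlapping libraries, as did 73.4% of all tested miRNAs, and by share of miRNA reads 3 of the 4 did, with miR-221-3p overlapping.

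In KD3 and KD6 cells the 3 products that passed in WT had log2 ratios of the same sign as there. In KD3 the log2 IP/input ratio was 0.91 (SE 0.31, edgeR adjusted p = 0.0148) for mmu-miR-222-3p and -1.25 (SE 0.25, adjusted p = 0.000186) for mmu-miR-222-5p. It was 0.35 (SE 0.21, adjusted p = 0.133) for mmu-miR-221-5p and 0.21 (SE 0.32, adjusted p = 0.577) for mmu-miR-221-3p, so 2 of 4 passed where 67.0% of all miRNAs did, and 2 of 4 had non-overlapping libraries where 74.0% of all miRNAs did. In KD6 it was 1.33 (SE 0.32, adjusted p = 0.000915) for mmu-miR-222-3p, 1.16 (SE 0.21, adjusted p = 4.94e-05) for mmu-miR-221-5p and -1.47 (SE 0.26, adjusted p = 4.53e-05) for mmu-miR-222-5p. With 0.34 (SE 0.33, adjusted p = 0.343) for mmu-miR-221-3p, 3 of 4 passed where 68.7% of all miRNAs did, and 3 of 4 did not overlap where 58.6% of all miRNAs did not. Without replicate A of the KD6 input the KD6 log2 ratios were 0.74 for mmu-miR-222-3p (edgeR adjusted p = 0.00417), 0.82 for mmu-miR-221-5p (adjusted p = 0.000902), -1.69 for mmu-miR-222-5p (adjusted p = 2e-05) and -0.25 for mmu-miR-221-3p (adjusted p = 0.248), where 66.5% of 585 tested miRNAs passed. Over 4 products these shares are close to the background, and nothing particular to the cluster can be read from them.

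These ratios depend on the scaling between IP and input libraries. Reads outside miRNA rows were 5.47% to 9.96% of mapped reads in inputs and 14.8% to 38.2% in IPs, and their part in the result was not tested. The median log2 IP/input ratio of all 534 miRNAs was -0.35 in WT, -0.25 in KD3 and -0.28 in KD6 with TMM factors, and it was -0.01 (WT), 0.00 (KD3) and 0.04 (KD6) with RLE factors and 0.38, 0.41 and 0.46 with upper-quartile factors. TMM sets all libraries against 1 reference library, which edgeR picks, and the median moved with that choice. The reference was replicate A of the WT IP with all 18 libraries. It was replicate A of the KD3 input in 13 of the 18 fits that left out 1 library, where the median in WT was -0.38 to -0.21. It was the shallow replicate A of the KD6 input in the other 5, without WT input C, KD3 input A or C, or KD6 input B or C, where the median was 0.46 to 0.52 in WT, 0.34 to 0.40 in KD3 and 0.36 to 0.38 in KD6 and 57.6% to 58.8% of the calls in WT were higher. The share of called miRNAs that were higher in WT IP was 39.3% with TMM and 57.7% with upper-quartile factors. In KD3 the same shares were 41.9% and 57.8%, and in KD6 45.2% and 59.1%. After subtraction of that TMM median, the main log2 ratios in WT, KD3 and KD6 were 1.09, 1.16 and 1.61 for miR-222-3p, 0.99, 0.60 and 1.45 for miR-221-5p and -0.79, -1.003 and -1.19 for miR-222-5p. For miR-221-3p they were -0.07, 0.46 and 0.63. The directions of miR-222-3p, miR-221-5p and miR-222-5p held in all 31 alternatives in each of the 3 conditions. That of miR-221-3p did not: in WT its log2 ratio ran from -0.58 to 0.31, in KD3 from -0.23 to 0.86 and in KD6 from -0.49 to 1.11.

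Several calls depended on the setting. In WT mmu-miR-222-3p missed the threshold without replicate A of the WT input (log2 ratio 0.69, edgeR adjusted p = 0.0502), and mmu-miR-221-5p with no abundance filter (0.50, adjusted p = 0.0873). In KD3 mmu-miR-222-3p missed it without replicate B (0.65, adjusted p = 0.0581) or C (0.54, adjusted p = 0.103) of the KD3 IP, and scaled by total mapped reads (0.56, adjusted p = 0.108). In KD6 mmu-miR-222-3p (0.49, adjusted p = 0.152) and mmu-miR-221-5p (0.32, adjusted p = 0.135) missed it when scaled by total mapped reads. In WT mmu-miR-222-5p missed it with upper-quartile factors (-0.41, adjusted p = 0.133) and in the 5 fits with replicate A of the KD6 input as TMM reference, with adjusted p of 0.153 to 0.191. There its log2 ratio was -0.50 to -0.41, and after subtraction of the median of all miRNAs, which had moved too, -1.03 to -0.87. It missed it in KD3 in 2 of the same 5 fits, without replicate A (-0.71, adjusted p = 0.0525) or C (-0.69, adjusted p = 0.0563) of the KD3 input. Some calls were gained. In KD3 mmu-miR-221-5p passed in 10 of 31 alternatives and mmu-miR-221-3p in 5, and in KD6 mmu-miR-221-3p passed in 10. For example, in KD3 mmu-miR-221-5p passed with RLE factors (0.60, adjusted p = 0.00474) and with DESeq2 (0.60, adjusted p = 0.000989), and in KD6 mmu-miR-221-3p passed with RLE factors (0.69, adjusted p = 0.0223) and with DESeq2 (0.69, adjusted p = 0.0224). In WT mmu-miR-221-3p passed in 4 of 31, without the shallow replicate A of the KD6 input (-0.45, adjusted p = 0.0297), with only the libraries compared (-0.33, adjusted p = 0.0494), with these and the replicate block (-0.35, adjusted p = 0.0183) and with no abundance filter (-0.58, adjusted p = 0.0187).

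**Figure D2:**
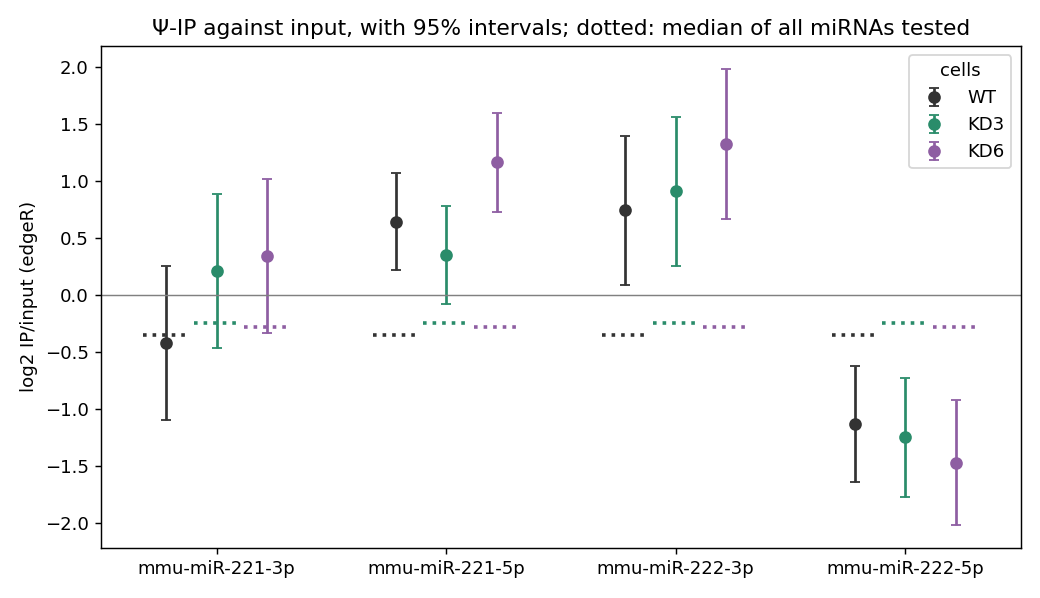
log2 IP/input ratio of the 4 products in WT, KD3 and KD6 cells, from edgeR over 18 libraries; bars are 95% intervals and dotted lines the median of all 534 tested miRNAs in that condition. miR-222-3p and miR-222-5p lie on opposite sides of 0 in all 3 conditions, and the intervals of miR-221-3p include 0.

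Ratios of one product to another within the same library do not depend on scaling between libraries, so they were tested on their own. For each of 4 ratios the IP and input labels were permuted exactly within each condition, two-sided, over 9 IP and 9 input libraries. The smallest p this test allows is 0.00025, and Benjamini-Hochberg adjustment was over the 4 ratios. The ratios share products, and on the log2 scale any of the 4 follows from the others, so the 4 results are not independent. How many other pairs of miRNAs separate likewise was not computed. By CPM, IP and input did not overlap for 73.4% of all tested miRNAs in WT, 74.0% in KD3 and 58.6% in KD6. Separation alone is thus not particular to this cluster.

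The guides were compared first. miR-222-3p counts were 1.02, 1.151 and 1.04 times those of miR-221-3p in the WT inputs and 2.86, 2.66 and 1.92 times in the WT IPs. In KD3 the ratios were 0.810, 0.902 and 1.01 in input and 1.31, 1.73 and 1.39 in IP. In KD6 they were 0.992, 0.833 and 0.961 in input and 1.82, 1.77 and 1.78 in IP. The ratio was thus near 1 in every input and above 1.3 in every IP. The log2 ratio was higher in IP by 0.95 on average over the 3 conditions, with IP above input in 27 of 27 comparisons of an IP with an input library of the same cells (exact permutation p = 0.00025, the smallest possible, adjusted p = 0.00033). WT gave a difference of 1.19, KD3 of 0.70 and KD6 of 0.95, and every exact permutation p by condition was 0.1, the smallest that 3 against 3 allows. Replicate A of the KD6 input, although shallow, had a ratio within the range of the other inputs, and without it the KD6 difference was 0.998.

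Of the 4 ratios, that between the arms of the Mir222 hairpin changed the most. The ratio of miR-222-3p to miR-222-5p was 35.6, 44.9 and 46.6 in WT input and 151, 162 and 150.4 in WT IP. It was 28.7, 36.3 and 36.5 in KD3 input and 86.4, 218 and 173 in KD3 IP. In KD6 it was 19.8, 45.1 and 69.1 in input and 371, 400.2 and 231 in IP. Input and IP did not overlap in any condition, and the mean log2 difference was 2.35 (27 of 27 comparisons higher in IP, exact permutation p = 0.00025, adjusted p = 0.00033). By condition it was 1.87 in WT, 2.13 in KD3 and 3.04 in KD6, or 2.53 in KD6 without replicate A of the input.

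For the Mir221 hairpin the difference between arms was smaller and went the other way. miR-221-3p counts were 4.29, 4.74 and 4.81 times those of miR-221-5p in WT input and 1.92, 1.99 and 2.65 times in WT IP. In KD3 the ratios were 4.03, 4.62 and 3.90 in input and 3.79, 3.09 and 4.50 in IP, and these overlapped. In KD6 they were 2.47, 6.43 and 6.61 in input and 3.02, 3.21 and 3.10 in IP, where only replicate A of the input lay below the IPs. The mean log2 difference was -0.62, with IP above input in 5 of 27 comparisons (exact permutation p = 0.00975, adjusted p = 0.00975). By condition it was -1.09 in WT (exact permutation p = 0.1), -0.15 in KD3 (exact permutation p = 0.4) and -0.60 in KD6 (exact permutation p = 0.4). Without replicate A of the KD6 input the KD6 difference was -1.07 with no overlap (exact permutation p = 0.1, the smallest that 3 against 2 allows), so that library decides it. Whether these conditions differ from each other was not tested.

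The ratio between the passenger strands changed too, and it shares miR-222-5p with the ratio between the arms of Mir222. The ratio of miR-222-5p to miR-221-5p was between 0.107 and 0.124 in WT input and between 0.0326 and 0.0364 in WT IP. It was 0.108 to 0.115 in KD3 input and 0.0244 to 0.0576 in KD3 IP, and 0.0919 to 0.124 in KD6 input and 0.0142 to 0.0239 in KD6 IP. The mean log2 difference was -2.02, with IP above input in 0 of 27 comparisons (exact permutation p = 0.00025, adjusted p = 0.00033). In KD6 without replicate A of the input the difference was -2.60. Over 21 alternatives for each ratio, with other pseudocounts, same-letter pairs of IP and input, or any library left out, each of the 4 ratios kept its direction and an exact permutation p under 0.05. The largest p was 0.0273, for the arms of Mir221.

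**Figure D3:**
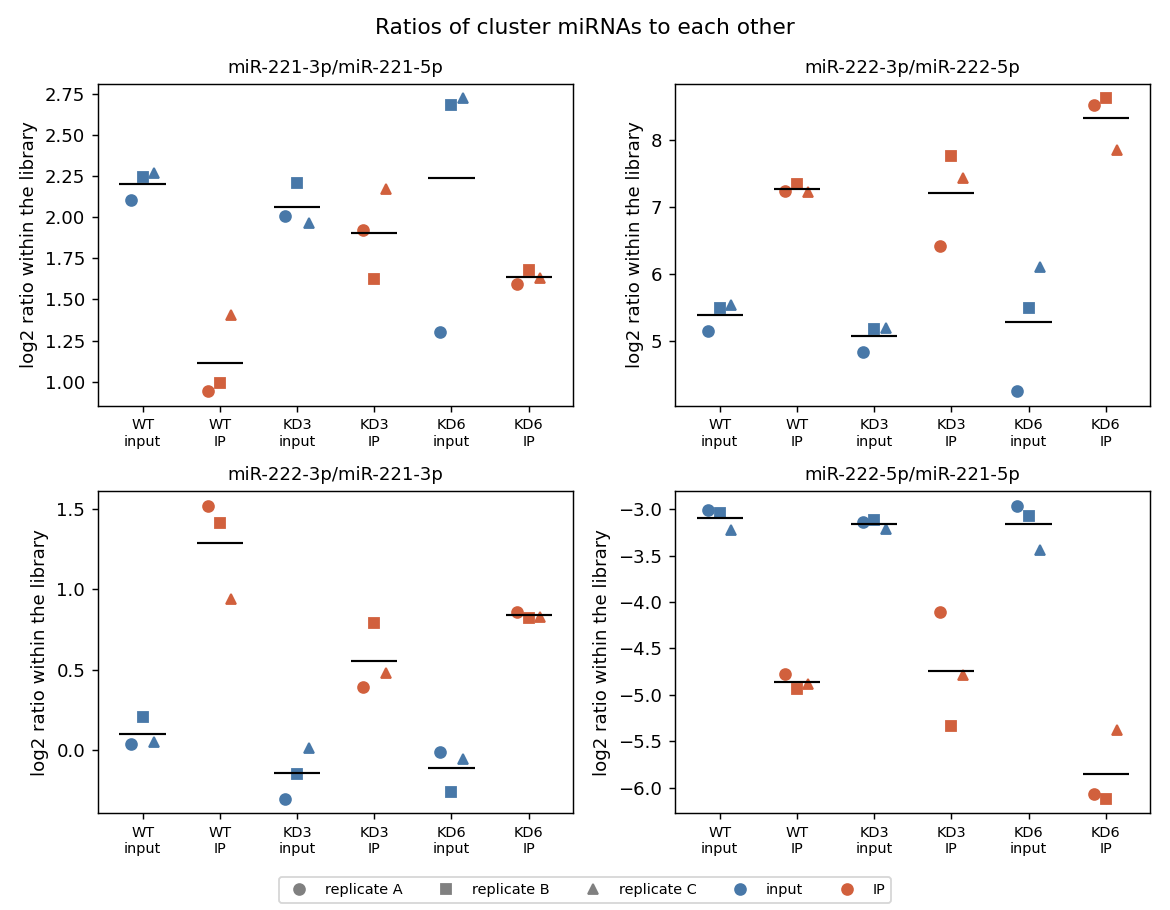
log2 ratio of estimated counts of 2 products in the same library, by group; points are single libraries and bars group means. In the panels for miR-222-3p/miR-222-5p, miR-222-3p/miR-221-3p and miR-222-5p/miR-221-5p, input and IP do not overlap in any condition, and in that for miR-221-3p/miR-221-5p they separate in WT only.

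Unequal arms were common in the whole table. For 155 hairpins with both arms tested, the log2 IP/input ratio of the 3p arm minus that of the 5p arm had a median of 0.10 in WT, with quartiles at -1.87 and 1.63. Mir222 was at 1.88, above 126 of the 155 hairpins, and Mir221 at -1.07, above 55. In KD3 they were at 2.16 and -0.14, and in KD6 at 2.80 and -0.82, or at 2.43 and -1.07 over 166 hairpins without replicate A of the KD6 input. Mir222 was above 127 hairpins in KD3 and 128 in KD6. Mir222 lay outside the quartiles of all hairpins in each condition and Mir221 within them. As many hairpins lie outside the quartiles as within them, so neither place is unusual.

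**Figure D4:**
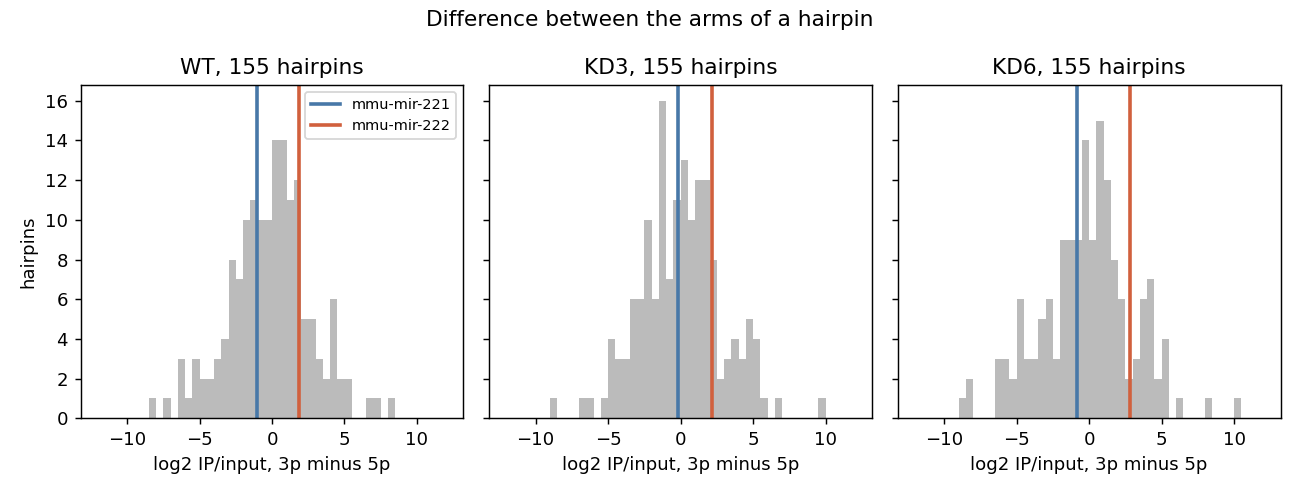
Histograms of the difference between arms (log2 IP/input of the 3p product minus that of the 5p product, bins of 0.5) over 155 hairpins in WT, KD3 and KD6 cells, with lines at the 2 hairpins of the cluster. Mir222 lies to the right of most hairpins in all 3 panels, and Mir221 lies at or left of the centre.

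Whether retention in the IP differed after Pus1 knockdown was tested as a change in the IP/input ratio between conditions. No product passed edgeR's test with Benjamini-Hochberg adjustment. For KD3 against WT the changes in log2 IP/input ratio were 0.63 for mmu-miR-221-3p (95% interval -0.33 to 1.59), -0.29 for mmu-miR-221-5p (-0.90 to 0.31), 0.17 for mmu-miR-222-3p (-0.75 to 1.09) and -0.12 for mmu-miR-222-5p (-0.84 to 0.61), with an adjusted p of 0.997 for each. In this comparison 0.0% of all miRNAs passed, and 0 products had an unadjusted p under 0.05. For KD6 against WT, where 1.12% of all miRNAs passed, the changes were 0.77 for mmu-miR-221-3p (-0.19 to 1.73), 0.52 for mmu-miR-221-5p (-0.09 to 1.13), 0.58 for mmu-miR-222-3p (-0.33 to 1.504) and -0.34 for mmu-miR-222-5p (-1.08 to 0.40), with adjusted p of 0.330 to 0.645 and again 0 products at an unadjusted p under 0.05. Without replicate A of the KD6 input the KD6 changes were 0.20 for mmu-miR-221-3p, 0.19 for mmu-miR-221-5p, 0.01 for mmu-miR-222-3p and -0.54 for mmu-miR-222-5p, with edgeR adjusted p of 0.478 to 0.999. That fit also had another TMM reference, replicate A of the KD3 input, and tested 585 miRNAs. Its median change over all miRNAs was -0.02, against 0.26 in the main fit. The part of the library itself in these shifts was thus not separated. DESeq2 over all 18 libraries also called 0 products for KD3 and for KD6 against WT. The 95% intervals reached past a 2-fold change for 2 of the 4 products in KD3 and for 4 of 4 in KD6.

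For KD6 against KD3, where 0.187% of all miRNAs passed, mmu-miR-221-5p changed by 0.81 in log2 IP/input (95% interval 0.21 to 1.42, adjusted p = 0.143), and it was the 1 product with an unadjusted p under 0.05. DESeq2 called it, with a log2 change of 0.83 (adjusted p = 0.0385). The changes were 0.14 for mmu-miR-221-3p (-0.82 to 1.09), 0.42 for mmu-miR-222-3p (-0.50 to 1.33) and -0.22 for mmu-miR-222-5p (-0.97 to 0.53). When the KD6 input's replicate A was left out, they were 0.67 for mmu-miR-221-5p (edgeR adjusted p = 0.133), -0.26 for mmu-miR-221-3p, 0.03 for mmu-miR-222-3p and -0.25 for mmu-miR-222-5p.

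The inputs alone show the level of the cluster after knockdown. All 4 products were lower in every KD3 input than in every WT input, a pattern that 28.1% of all tested miRNAs shared, and the same held for their shares of miRNA reads. In bulk libraries fewer cells with a miRNA and less of it per cell cannot be told apart. The log2 ratio of KD3 to WT input was -0.51 for mmu-miR-221-3p (SE 0.33, edgeR adjusted p = 0.678), -0.75 for mmu-miR-222-3p (SE 0.31, adjusted p = 0.508), -0.37 for mmu-miR-221-5p (SE 0.20, adjusted p = 0.649) and -0.44 for mmu-miR-222-5p (SE 0.24, adjusted p = 0.649). The median of all miRNAs was -0.17. In the fit over all 18 libraries 0 of 4 passed, as did 0.0% of all miRNAs; 1 product had an unadjusted p under 0.05 and DESeq2 called 0. When only the 6 libraries compared were fitted, without the libraries of the other groups, 2 of 4 passed, as did 74 of 526 miRNAs (14.1%). mmu-miR-222-3p then fell by 0.61 (adjusted p = 0.00242) and mmu-miR-221-3p fell by 0.37 (adjusted p = 0.00358) on the log2 scale. Replicates of the same letter deviated together in these inputs, and with the letter as a block in that fit, an alternative chosen after the data were seen, 2 products passed as well, as did 86 of 526 miRNAs (16.3%), at -0.61 (adjusted p = 0.00115) for mmu-miR-222-3p and -0.37 (adjusted p = 0.00221) for mmu-miR-221-3p.

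The KD6 inputs did not differ detectably from WT. In KD6 against WT, where 5.06% of all miRNAs passed, 0 products did, 0 had an unadjusted p under 0.05 and DESeq2 called 0. By CPM mmu-miR-221-5p was lower in every KD6 input than in every WT input, but its shares of miRNA reads overlapped, at 0.0432%, 0.0599% and 0.0632% in KD6 and 0.0575%, 0.0566% and 0.0514% in WT. The log2 ratios were -0.05 for mmu-miR-221-3p (95% interval -0.73 to 0.63), -0.29 for mmu-miR-222-3p (-0.94 to 0.36), -0.30 for mmu-miR-221-5p (-0.73 to 0.13) and -0.36 for mmu-miR-222-5p (-0.88 to 0.16). Leaving out the shallow replicate A of the KD6 input gave 0.50 and 0.25 for mmu-miR-221-3p and mmu-miR-222-3p, with edgeR adjusted p of 0.155 and 0.594, and 0.00 and -0.16 for mmu-miR-221-5p and mmu-miR-222-5p. In KD6 against KD3, where 5.99% of all miRNAs passed, the log2 ratios were 0.46 for mmu-miR-221-3p (adjusted p = 0.523), 0.46 for mmu-miR-222-3p (adjusted p = 0.515), 0.07 for mmu-miR-221-5p and 0.08 for mmu-miR-222-5p (adjusted p = 0.913 for both). Again 0 products passed with edgeR or DESeq2, and 0 had an unadjusted p under 0.05. With that library left out 2 of 4 passed, as did 48 of 585 miRNAs (8.21%), with mmu-miR-221-3p at 0.88 (adjusted p = 0.00826) and mmu-miR-222-3p at 0.86 (adjusted p = 0.0143), so this call turns on that library.

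The balance between products in the inputs was compared in 8 exact permutation tests of 3 against 3 libraries, in which no p can fall below 0.1. The log2 ratio of miR-222-3p to miR-221-3p was lower by 0.24 in KD3 than in WT input (0.10 in WT, -0.15 in KD3) and lower by 0.21 in KD6 (-0.11), with no overlap in either case (exact permutation p = 0.1, adjusted p = 0.4 over the 8 tests). Without replicate A of the KD6 input the second difference was -0.26, and the log2 ratio of miR-221-3p to miR-221-5p was then higher in KD6 than in WT input by 0.50 with no overlap. The other 6 tests had overlapping ranges and exact permutation p of 0.2 to 1.

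The products were not alike across the 18 libraries. Pearson's r of log2 CPM, given as a description over libraries that differ in depth and in IP or input, was 0.93 between miR-221-5p and miR-222-3p, which come from different hairpins. It was 0.69 between the guides, 0.52 between the arms of Mir221 and -0.53 between the arms of Mir222. Without replicate A of the KD6 input these were 0.94, 0.48, 0.37 and -0.59 over 17 libraries. Among 151 miRNAs with a mean of at least 100 CPM, the patterns most like miR-222-3p were those of miR-221-5p (r = 0.93), miR-467c-5p (0.89) and miR-20a-5p (0.89), and those most like miR-221-5p were miR-222-3p (0.93), miR-7a-5p (0.92) and miR-1198-5p (0.84). For miR-221-3p they were miR-374b-5p (0.80), miR-25-3p (0.77) and miR-145a-3p (0.73), and for miR-222-5p miR-27a-5p (0.94), miR-93-5p (0.93) and miR-1839-5p (0.92).

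Other miRNAs known to act on cell growth had log2 IP/input ratios that ran further in both directions than those of the cluster. They outnumber the 4 products, so the wider range by itself says nothing particular about either. Among all 534 tested miRNAs 26.2% were higher and 40.4% lower in WT IP by edgeR's test, 28.1% and 39.0% in KD3, and 31.1% and 37.6% in KD6, with the medians given above (-0.35, -0.25 and -0.28). Of 8 growth-promoting miRNAs (miR-21a-5p, miR-155-5p and 6 products of the miR-17-92 cluster), 2 were higher and 5 lower in WT IP by edgeR's test, 3 and 5 in KD3, and 2 and 4 in KD6. Their median log2 IP/input ratio was -1.72 in WT, -1.92 in KD3 and -0.93 in KD6. mmu-miR-92a-3p was the highest at 2.64 (SE 0.27) in WT, 3.09 in KD3 and 3.37 in KD6. mmu-miR-18a-5p was the lowest in WT at -6.60 (SE 0.47) and in KD6 at -7.63, and mmu-miR-19b-3p the lowest in KD3 at -5.15. Of 8 growth-restraining miRNAs (let-7a-5p, miR-15a-5p, miR-15b-5p, miR-16-5p, miR-24-3p, miR-34a-5p, miR-195a-5p and miR-145a-5p), 1 was higher and 5 lower in WT IP, 2 and 4 in KD3, and 1 and 3 in KD6. Their median log2 ratios were -0.78, -0.60 and -0.53. Over 31 alternatives the median of the growth-promoting list stayed below 0 in each condition, while that of the growth-restraining list ran from -0.93 to 0.01 in WT, from -1.21 to 0.06 in KD3 and from -1.36 to 0.26 in KD6. mmu-let-7a-5p was the highest at 1.70 (SE 0.26) in WT, 2.20 in KD3 and 2.86 in KD6, and mmu-miR-15a-5p the lowest at -3.31 (SE 0.66), -2.21 and -4.58. In the inputs, and for the change in IP/input, no member of either list passed except mmu-miR-24-3p, which was lower in KD6 than in KD3 input (log2 ratio -0.65, edgeR adjusted p = 0.0412).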

How the data were processed

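Small RNA under 200 nt from NIH/3T3 cells, per the labels, was sequenced before and after Ψ-IP. The study's Ψ-IP methods add a gel extraction of a narrower size band. Per the authors, adapters were removed and reads passed through the SeqImp pipeline (version not given in the sources used here) on mm10 with Ensembl and miRBase annotation, and counts were tested with DESeq2. They deposited estimated counts per miRNA and hairpin, not normalized, in which reads matching several loci are divided, beside counts of distinct read sequences. A row of mapped-read totals names no miRNA and stayed out of the tests. Reads outside miRNA rows were 5.47% to 38.2% of that total.

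Estimated counts were rounded. Each miRNA was its row with the largest total. edgeR 4.0.16 in R 4.3.3 (TMM, filterByExpr, glmQLFit, glmQLFTest) was fitted with 6 group means over 18 libraries, which left 534 miRNAs, all 4 products among them, for 9 comparisons with a Benjamini-Hochberg threshold of 0.05. The SE was obtained from the log2 ratio and its F statistic. Within-library ratios used estimated counts plus 0.5. The code was tested on simulated counts, where the test of IP against input in WT called 66% of the 97 miRNAs given a 2-fold change and 98% of the 98 given a 4-fold change. It called 1.85% of the 325 given no change. The simulation gave every miRNA the same variability. Its shares are for this comparison and do not give the power of the tests between knockdown and WT.

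Alternatives were other scaling factors, other filters, other row choices, a replicate block, only the libraries compared, DESeq2 1.42.0, a test beyond 2-fold and each library left out. The products, lists and tests were chosen with earlier results of these data known. Named miRNAs were the 4 products, miRNAs with their seed, for each product the 3 miRNAs of at least 100 CPM with the highest r, and list members with the largest and smallest log2 ratio.

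Deviations of same-letter libraries from their group means were correlated across 197 miRNAs. For KD3 against WT input r was 0.587, 0.217 and 0.330, and for KD6 against KD3 input 0.243, 0.289 and 0.323. A pairing of those inputs rests on these values only. Libraries of different letters were not compared, and no label says what a letter shares. In the other comparisons at least 1 pair was under 0.1.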

Additional observations from a re-analysis of the deposited data

How the results depend on the processing

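All 4 within-library ratios kept their direction and their side of the threshold under every alternative run. Counts of the 4 products past the threshold moved by over 1.5 times as follows. With a test beyond 2-fold they were 0 in WT, 0 in KD3 and 1 in KD6 for IP against input (257, 250 and 291 of all 534 miRNAs). With total mapped reads they were 1 in KD3 and 1 in KD6 (364 and 397 of 564 miRNAs), and with upper-quartile factors 4 in KD3 (393 of 534). With 1 library left out they were 1 to 4 in KD3 (58.7% to 69.1% of all miRNAs), and 0 to 2 for KD6 against KD3 input (0.342% to 8.21%). DESeq2 gave 1 for the change in IP/input between KD6 and KD3 (18 of 534). With only the libraries compared, KD3 against WT input gave 2 (74 of 526), and 2 with the replicate block as well (86 of 526). With the replicate block over all 18 libraries, 3 products passed in WT, 2 in KD3 and 3 in KD6 for IP against input and 0 in the other comparisons, as without it. The block thus moved none of these counts.

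The direction of IP against input for mmu-miR-221-3p turned in WT with upper-quartile factors (0.31), in KD3 with total mapped reads (-0.14), no filter (-0.03) and all rows (-0.01), and in KD6 without factors (-0.06), with total mapped reads (-0.49) and no filter (-0.12). With 1 library left out it ran from -0.53 to 0.30 in WT, from -0.23 to 0.72 in KD3 and from -0.25 to 1.09 in KD6. Changes in IP/input near 0 turned too. For KD3 against WT mmu-miR-222-3p was at -0.18 with total mapped reads and -0.07 with all rows, and from -0.23 to 0.18 with 1 library left out. For KD6 against WT mmu-miR-221-3p was at -0.05 with total mapped reads, mmu-miR-221-5p at -0.14 without factors and -0.32 with total mapped reads, and mmu-miR-222-3p at -0.09 and -0.25. For KD6 against KD3 mmu-miR-221-3p was at -0.47, -0.34 and, with no filter, -0.10, and from -0.26 to 0.39 with 1 library left out, and mmu-miR-222-3p was at -0.19 and -0.08. For KD6 against WT input mmu-miR-221-3p was at 0.11 (RLE), 0.08 (upper quartile), 0.27 (no factors), 0.20 (total mapped reads), 0.24 (no filter), 0.17 (mean of 10 counts), 0.15 (all rows), 0.14 (libraries compared), 0.01 (the same with the block) and 0.11 (DESeq2). There mmu-miR-221-5p was at 0.02 without factors and 0.07 with no filter, and mmu-miR-222-3p at 0.04 and 0.01. With 1 library left out mmu-miR-221-3p ran from -0.05 to 0.50, mmu-miR-221-5p from -0.04 to 0.06, mmu-miR-222-3p from -0.27 to 0.25 and mmu-miR-222-5p from -0.27 to 0.08. The cause of these turns was not tested.

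Depth limits miR-222-5p most, at 12 to 811 estimated counts per library, and replicate A of the KD6 input, at 241109 mapped reads. Counts come from reads without molecular identifiers.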
